A study of Mus musculus with 12 samples.

Results

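The Zbtb, Zkscan and Zscan genes encode zinc finger transcription factors that carry a BTB or a SCAN domain beside their DNA-binding fingers. They were taken from the count table by symbol, as every gene whose name began with Zbtb, Zkscan or Zscan followed by a number. This gave 71 of 27179 genes: 42 Zbtb, 11 Zkscan and 18 Zscan. Enough reads for a test were found for 63 of them, namely all 42 Zbtb, all 11 Zkscan and 10 of the 18 Zscan genes. The symbol rule also took in Zbtb11os1, a long non-coding RNA on the opposite strand of Zbtb11, and Zbtb8os, which RefSeq also lists as Arch (archease) and which is not a zinc finger gene.

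RNA was sequenced from eWAT, the epididymal white fat pad, of male C57BL/6J mice fed chow. The vehicle group (n = 6) received saline and the epinephrine group (n = 6) received epinephrine at 0.5 mg/kg, each injected into the peritoneum at about the same morning hour, and the fat was collected 1 h later. Epinephrine is the adrenal hormone that acts on adrenergic receptors, and beta-adrenergic receptors of fat cells signal through cyclic AMP. The listed ages were 12 to 17 weeks for vehicle and 18 to 23 weeks for epinephrine, rising by exactly 1 week from each listed mouse to the next. Whether they are the animals' true ages could not be checked, and as listed, age and treatment cannot be told apart.

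In a BTB zinc finger protein the BTB domain pairs 2 molecules and recruits corepressor complexes or the cullin 3 ligase, while the fingers choose the DNA site. In SCAN zinc finger proteins the SCAN domain pairs the protein with itself or with other SCAN proteins, and the Zkscan proteins carry a KRAB domain as well, the module through which many vertebrate zinc finger proteins recruit the corepressor Trim28 and silence chromatin. Several BTB zinc finger proteins are lineage regulators, such as Zbtb7b (ThPOK) of helper T cells, Zbtb46 of classical dendritic cells and Zbtb16 (PLZF) of innate-like lymphocytes.

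Library totals of reads counted in genes ran from 24821601 to 34405433. Of 12 cyclic AMP and immediate early genes looked at as a check of the treatment, 11 were higher with epinephrine, with a median log2 fold change of 3.41 against -0.00 over all genes tested. The 12 adipocyte markers summed to 16860 to 54133 CPM with vehicle and to 21601 to 51774 CPM with epinephrine, and none was called. Of the other cell type lists, 1 of 12 endothelial genes (Cldn5) was higher. Lower were 1 of 12 T and NK cell (Ncr1), 1 of 6 dendritic cell (Xcr1) and 1 of 5 tested red cell genes (Hbb-bs). No gene of the remaining lists was called, where 6.23% of all tested genes were called in either direction. The libraries differed in RNA of the neighbouring epididymis, and the summed level of 15 epididymis and testis markers ran from 10.9 to 45774 CPM with vehicle and from 36.5 to 31998 CPM with epinephrine. In this bulk tissue, fewer cells of a type and less RNA per cell cannot be told apart.

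More of these genes fell than rose with epinephrine at the main threshold, but not at a stricter one. Of the 63 tested genes, 4 rose and 12 fell (edgeR's quasi-likelihood test, adjusted p under 0.05 over 16175 genes), where 2.65% of all tested genes rose and 3.58% fell (6.23% in either direction). The 4 that rose were Zbtb genes (4 of 42), and 6 Zbtb genes fell. No Zkscan or Zscan gene rose, and 3 of 11 Zkscan and 3 of 10 Zscan genes fell. At an unadjusted p under 0.05, 24 Zbtb, 4 Zkscan and 6 Zscan genes passed in either direction, 34 of 63 against 17.2% of all tested genes. At an adjusted p under 0.01, 3 members rose and 3 fell, against 1.41% and 1.14% of all genes.

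The shift was broad and small. The median log2 fold change of epinephrine against vehicle was -0.19 over all 63 genes, -0.19 for Zbtb, -0.19 for Zkscan and -0.21 for Zscan, and 48 of 63 (76.2%) were below 0, against 50.2% of all tested genes. The only called gene past a 2-fold change was Zkscan4. Among the much larger set of genes with numbered Zfp symbols, 361 tested, 3 rose and 92 fell, with a median of -0.31. Whether one subfamily differed from another was not tested.

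**Figure D1:**
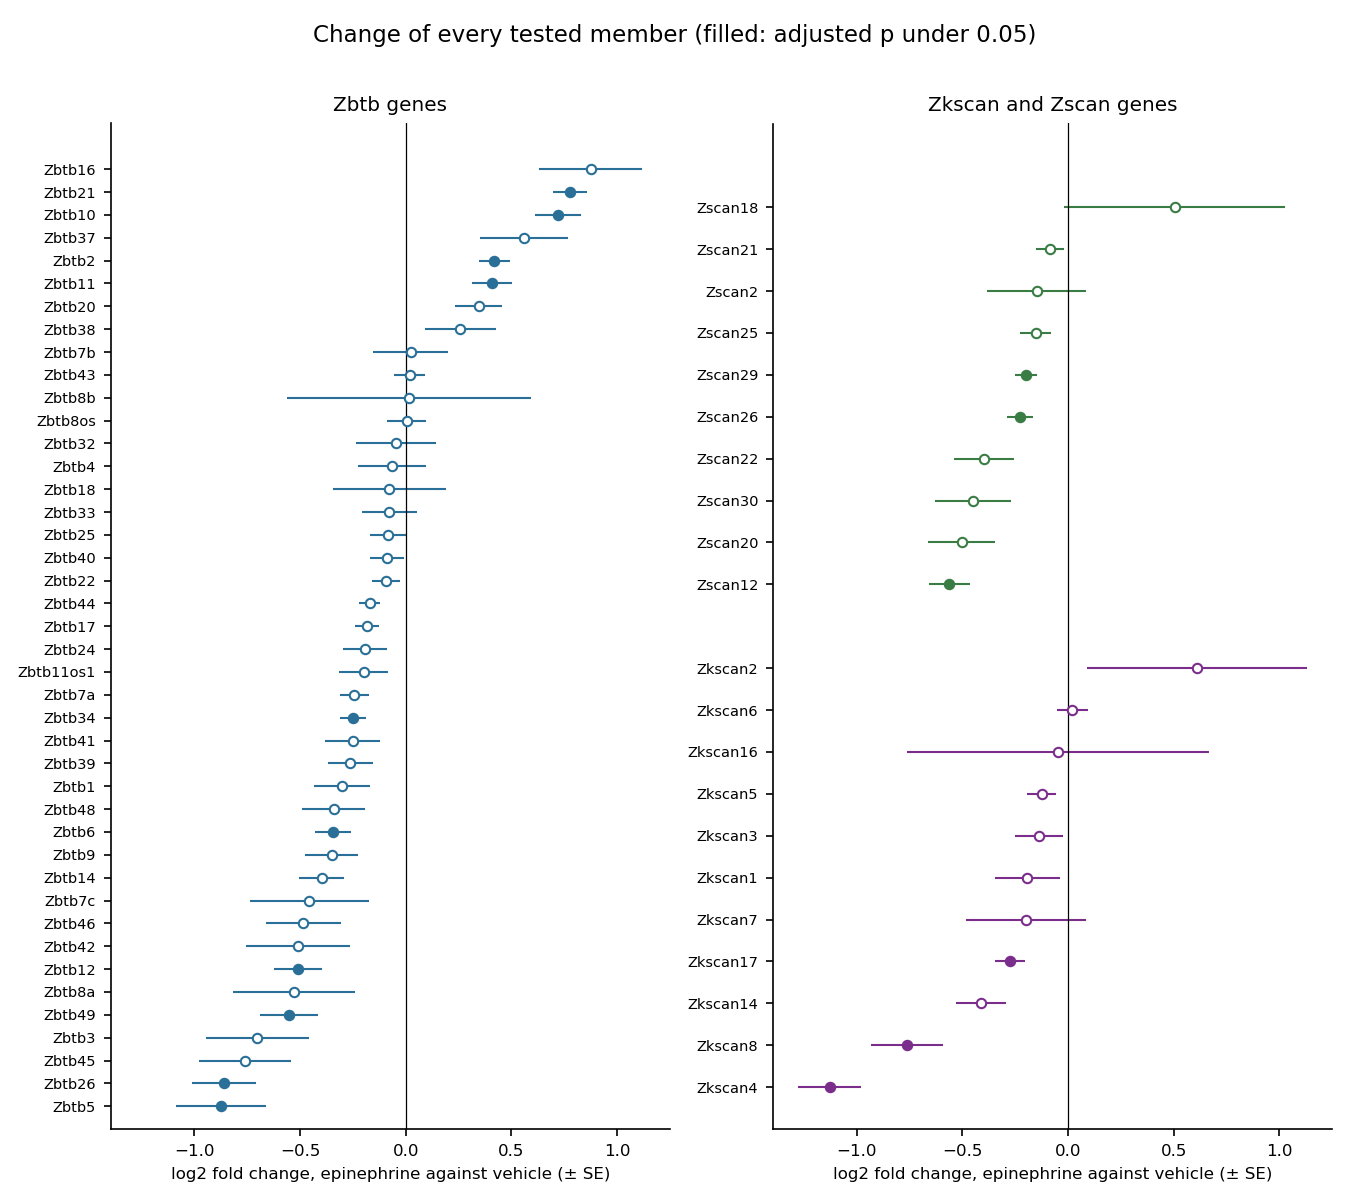
Log2 fold change of epinephrine against vehicle with its standard error for each of the 63 tested genes, Zbtb on the left and Zkscan and Zscan on the right, with filled points for adjusted p under 0.05. The filled points above 0 are Zbtb21, Zbtb10, Zbtb2 and Zbtb11, and Zkscan4 lies lowest at -1.13.

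How many genes passed depended on single libraries. In the numbers that follow, the share in parentheses is that of all tested genes that fell in the same fit. Without vehicle 1, 4 members rose and 4 fell (2.17%), without vehicle 2, 4 and 8 (3.61%), and without vehicle 3, 3 and 7 (2.23%). Without vehicle 4, 3 rose and 3 fell (1.69%), without vehicle 5, 3 and 8 (2.53%), and without vehicle 6, 6 and 7 (2.72%). Without epinephrine 1, 5 rose and 20 fell (4.9%), without epinephrine 2, 4 and 6 (2.46%), and without epinephrine 3, 3 and 7 (2.22%). Without epinephrine 4, 4 rose and 3 fell (1.91%), without epinephrine 5, 4 and 5 (2.28%), and without epinephrine 6, 3 and 6 (2.75%). Falls thus did not outnumber rises without vehicle 1, vehicle 4 or epinephrine 4. The share of all genes that rose lay between 1.94% and 3.38% in these 12 fits. Without the 3 libraries in which the epididymal gene Gpx5 took more than 0.5% of reads (vehicle 2, epinephrine 1 and 2), 5 of 62 genes rose and 22 fell, against 4.87% and 6.37% of all genes. With the epididymal score of each library as a covariate, 6 rose and 22 fell, against 4.37% and 6.07%. With the replicate number as a block, 3 rose and 6 fell, against 2.38% and 2.26% of all genes. Scaling by library size alone moved the median of all genes by -0.11 and called 3 genes up and 20 down (2.23% and 8.95% of all genes). RLE scaling called 4 up and 7 down (2.85% and 2.76%).

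Zbtb21, Zbtb10, Zbtb2, Zkscan4, Zbtb26 and Zscan12 were called in each of the 12 fits that left out 1 library and in 9 other fits at the same threshold that changed the scaling, filter, test or block. The other 10 called genes were called in 1 to 9 of the 12 fits without 1 library. In the plot of called genes by library the groups are apart for 11 of the 16. Counting all tested members, the groups did not overlap for 14 (4 higher and 10 lower), which is 22.2% of them. Over all tested genes 4.79% had separate groups, 2.04% higher and 2.74% lower.

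**Figure D2:**
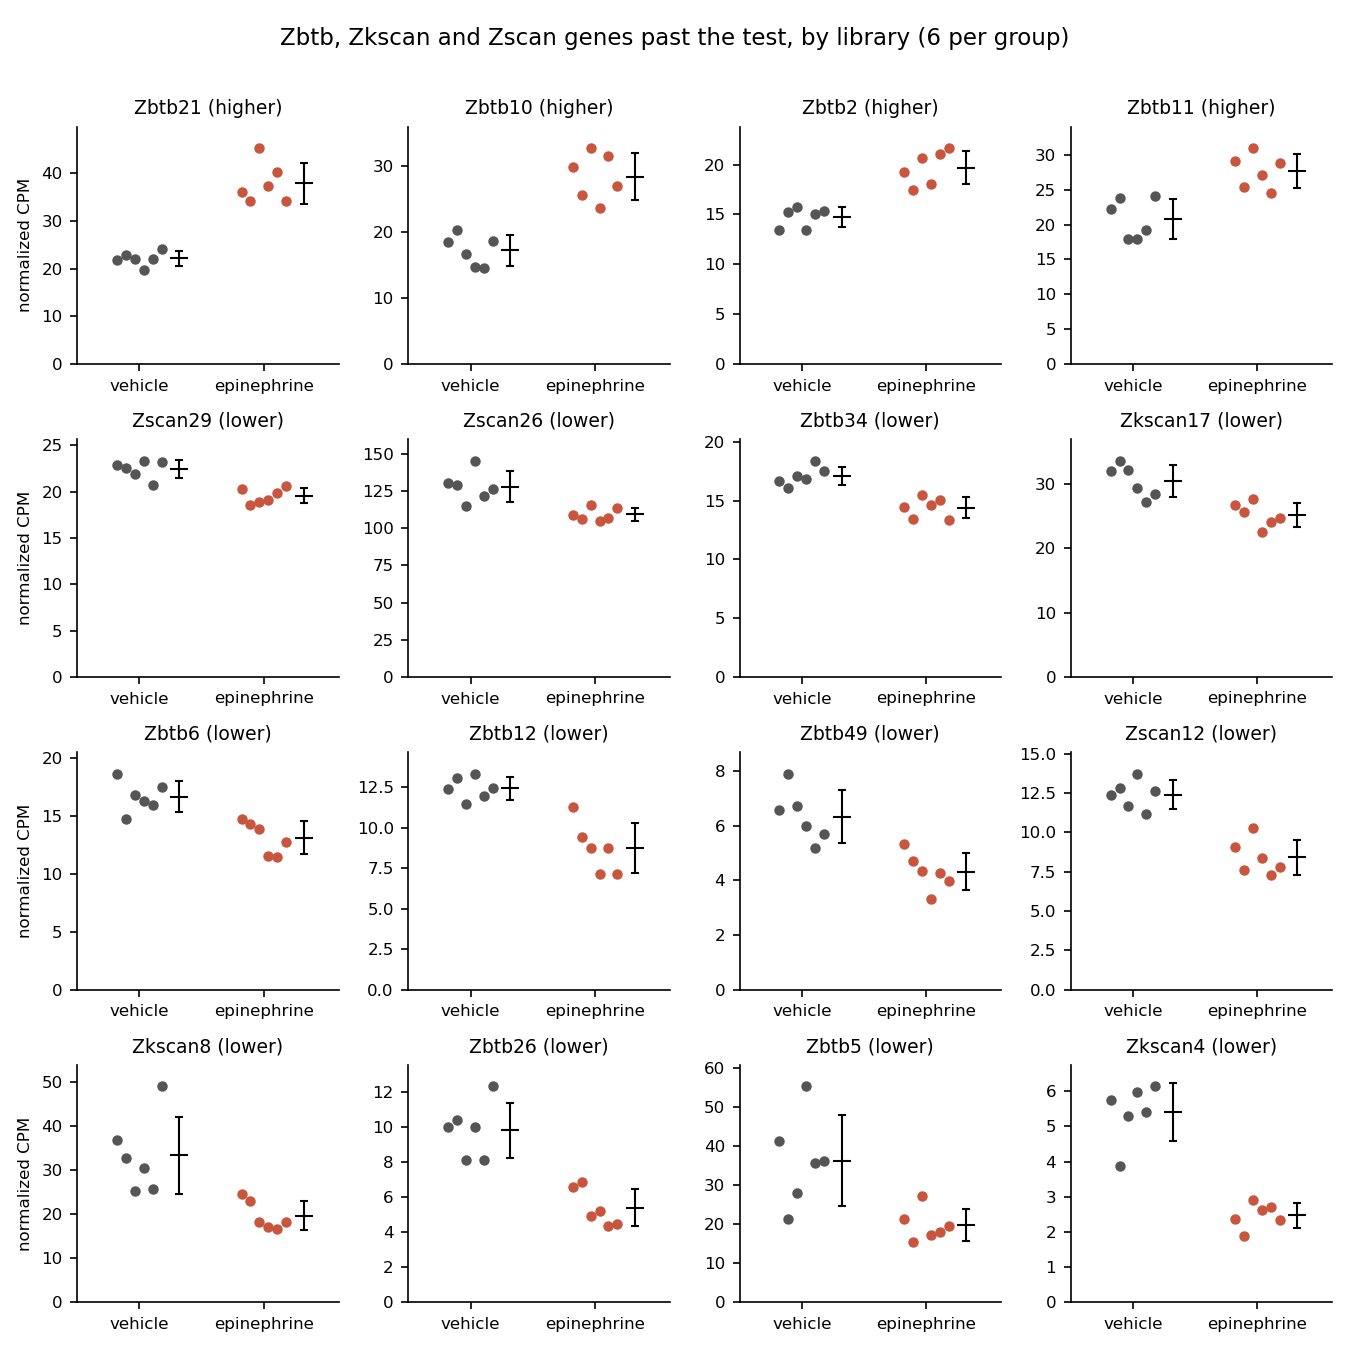
Normalized CPM of the 16 called genes in each of the 6 vehicle and 6 epinephrine libraries, with the mean and SD of each group beside the points and each axis starting at 0. The groups overlap for Zbtb5, Zbtb6, Zbtb49, Zkscan17 and Zscan26, and are apart for the other 11.

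The genes that rose were led by Zbtb21, known as a repressor that partners Zbtb14. Its gene lies on the minus strand of chromosome 16, at chr16:97945795-97962627 (GRCm38). Zbtb21 ran from 19.6 to 24.2 CPM with vehicle (median 22.1) and from 34.0 to 45.2 CPM with epinephrine (median 36.7). Every epinephrine library was above every vehicle library, and the level was 1.71-fold higher (log2 fold change 0.77, SE 0.08, adjusted p = 0.000241). In the GENCODE M21 annotation an exon of Zbtb21 overlaps C2cd2 on the same strand, and C2cd2 itself was at 39.7 and 40.9 CPM in the respective groups and was not called.

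Zbtb10, a repressor that competes with Sp factors at GC-rich sites, ran from 14.5 to 20.3 CPM with vehicle (median 17.6) and from 23.7 to 32.7 CPM with epinephrine (median 28.4). The groups did not overlap, and the rise was 1.65-fold (log2 fold change 0.72, SE 0.11, adjusted p = 0.00239). Zbtb10 lies at chr3:9250567-9285333 on the plus strand.

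Zbtb2, which represses genes of the p53 pathway, ran from 13.5 to 15.8 CPM with vehicle (median 15.2) and from 17.5 to 21.7 CPM with epinephrine (median 19.9). This rise of 1.34-fold (log2 fold change 0.42, SE 0.07, adjusted p = 0.0055) was smaller than those of Zbtb21 and Zbtb10, and the groups were again apart. Zbtb11, a factor needed for mitochondrial function, ran from 17.9 to 24.1 CPM with vehicle (median 20.7) and from 24.5 to 30.9 CPM with epinephrine (median 28.0). The lowest epinephrine library lay just above the highest vehicle library, and Zbtb11 rose 1.33-fold (log2 fold change 0.41, SE 0.10, adjusted p = 0.028). Its call was lost without vehicle 3, 4 or 5 or epinephrine 3 or 6 (adjusted p up to 0.0727), with the replicate block (adjusted p = 0.0646), and with library size scaling (adjusted p = 0.0919). Zbtb11 shares exon bases with the opposite-strand genes Pcnp and Zbtb11os1, and neither was called: Zbtb11os1 had means of 8.84 CPM (vehicle) and 7.70 CPM (epinephrine). Whether the counting separated the strands is not given in the sources used here.

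The promoters of the genes that rose are shown because they are the places where a cyclic AMP response element could be looked for by its letters. The windows hold 250 bases before and 50 after a transcript start and were taken from RefSeq (GRCm38.p6), which gave a window for 57 of the 71 genes and for 15 of the 16 called. Some genes have several starts (75 windows in all) and were counted once if any window held a motif, while each called gene had 1 window. Positions count from the start in the printed window, which for Zbtb11 and Zbtb21 lies inside the gene's RefSeq span and not at its outer end. Capitals mark TGACG on either strand (CGTCA is its reverse complement), the core site of the cyclic AMP response element, and a run of TGACGTCA is the full palindromic element, made of overlapping core sites. The Zbtb21 window is chr16:97962573-97962872 on the minus strand, the Zbtb11 window chr16:55973554-55973853 on the plus strand, and the Zbtb2 window chr10:4388059-4388358 on the minus strand.
Zbtb21: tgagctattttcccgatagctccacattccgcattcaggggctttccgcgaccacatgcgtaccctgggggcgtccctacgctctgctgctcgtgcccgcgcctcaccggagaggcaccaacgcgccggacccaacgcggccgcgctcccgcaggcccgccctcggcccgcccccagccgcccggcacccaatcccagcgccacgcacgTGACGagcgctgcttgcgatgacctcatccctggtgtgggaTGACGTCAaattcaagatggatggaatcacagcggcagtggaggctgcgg
Zbtb11: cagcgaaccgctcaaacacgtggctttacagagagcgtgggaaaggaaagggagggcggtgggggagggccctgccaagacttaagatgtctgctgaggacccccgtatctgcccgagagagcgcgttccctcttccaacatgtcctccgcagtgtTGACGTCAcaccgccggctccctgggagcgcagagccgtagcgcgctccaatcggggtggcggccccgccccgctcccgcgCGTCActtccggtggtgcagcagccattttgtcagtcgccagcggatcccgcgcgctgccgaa
Zbtb2: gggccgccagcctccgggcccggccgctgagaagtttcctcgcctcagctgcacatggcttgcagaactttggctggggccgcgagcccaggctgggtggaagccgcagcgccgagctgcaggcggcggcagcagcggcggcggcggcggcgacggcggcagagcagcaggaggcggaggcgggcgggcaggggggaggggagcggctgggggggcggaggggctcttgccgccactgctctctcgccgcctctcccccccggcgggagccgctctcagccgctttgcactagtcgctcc

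The full element was found in Zbtb21 from position 1, the start used for its window, and in Zbtb11 from position -94, and not in Zbtb2. Zbtb10 is named here without a window. TGACGTCA thus stood in 2 of 3 genes that rose, in 0 of 12 that fell and in 2 of 37 tested genes that were not called (Zscan18 and Zscan20), against 2.03% of 27025 genes with a window. The core site TGACG stood in 2 of 3, 2 of 12 and 11 of 37 of these genes and in 23.0% of all. The E box CACGTG, a palindrome, stood in 2 of 3 genes that rose (Zbtb21 and Zbtb11) and in 1 of 12 that fell (Zbtb49). It also stood in 3 of 37 tested genes not called and in 8.09% of all genes. In Zbtb21 the E box overlaps the start of the core site at position -41. The heat shock unit GAANNTTC stood in 1 of 3 genes that rose (Zbtb2) and in 1 of 12 that fell (Zkscan4). It stood in 0 of 37 tested genes not called and in 9.04% of all. A serum response element core, given here by name alone, stood in none of the 57 and in 0.0777% of all. All 5 motifs were searched on both strands and were picked with the calls known, so these counts describe the windows and say nothing of binding.

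Among the Zbtb genes that fell, Zbtb26 and Zbtb5 had the largest changes. Zbtb26 ran from 8.11 to 12.3 CPM with vehicle (median 9.99) and from 4.39 to 6.86 CPM with epinephrine (median 5.07). The groups did not overlap, and the epinephrine level was 0.551 times that of vehicle (log2 fold change -0.86, SE 0.15, adjusted p = 0.00565). Zbtb6, its neighbour on the minus strand of chromosome 2, fell as well, from a mean of 16.7 ± 1.35 to 13.1 ± 1.41 CPM (SD, n = 6 each), with overlapping groups (log2 fold change -0.34, SE 0.09, adjusted p = 0.0359 by edgeR). Zbtb6 lies at chr2:37425500-37430919 and Zbtb26 at chr2:37432168-37443172, by their RefSeq spans, which do not overlap. In the GENCODE M21 annotation exons of the pair share bases on the same strand, and which annotation the counting used is not given in the sources used here. The Zbtb6 call was lost without vehicle 1, 3, 4, 5 or 6 or epinephrine 3, 4, 5 or 6 (adjusted p up to 0.125), with the replicate block (adjusted p = 0.0674), and with RLE scaling or on the deposited log2-scale values (adjusted p up to 0.0535).

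Zbtb5, a repressor of the cell cycle inhibitor gene Cdkn1a, was the most variable of the called genes within vehicle, from 21.4 to 55.3 CPM (median 35.9), and ran from 15.4 to 27.2 CPM with epinephrine (median 18.9). The groups overlapped, and the level was 0.546 times that of vehicle (log2 fold change -0.87, SE 0.21, adjusted p = 0.0315). Its call was lost without vehicle 1, 4, 5 or 6 or epinephrine 2, 4, 5 or 6 (adjusted p up to 0.0861), and with the replicate block (adjusted p = 0.0638). Zbtb49, which activates Cdkn1a, fell from 6.34 ± 0.955 to 4.32 ± 0.666 CPM (SD, n = 6 each), also with overlap (log2 fold change -0.55, SE 0.14, adjusted p = 0.0357 by edgeR). The Zbtb49 call was lost without vehicle 1, 2, 3 or 4 or epinephrine 2, 3, 4, 5 or 6 (adjusted p up to 0.0987), and with the replicate block (adjusted p = 0.0563).

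Zbtb12 ran from 11.4 to 13.3 CPM with vehicle (median 12.4) and from 7.12 to 11.3 CPM with epinephrine (median 8.74). The groups were apart by a narrow margin, and Zbtb12 fell to 0.703 times the vehicle level (log2 fold change -0.51, SE 0.11, adjusted p = 0.0196). Its exons overlap the opposite-strand complement gene C2, which was far more abundant, at 334 and 332 CPM, and was not called. The Zbtb12 call was lost without vehicle 2 or 4 or epinephrine 4 (adjusted p up to 0.0873), and with the replicate block (adjusted p = 0.0571). Zbtb34 fell the least of the Zbtb genes, from 17.1 ± 0.784 to 14.4 ± 0.879 CPM (SD, n = 6 each), with no overlap (log2 fold change -0.25, SE 0.06, adjusted p = 0.0299 by edgeR). The Zbtb34 call was lost without vehicle 1, 3, 4, 5 or 6 or epinephrine 2, 4 or 6 (adjusted p up to 0.0843), with the replicate block (adjusted p = 0.0872), and with RLE scaling, no filter or the deposited log2-scale values (adjusted p up to 0.0608).

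Of the 6 Zkscan and Zscan genes that fell, 4 lie in a cluster on chromosome 13. Zscan12, Zkscan3, Zscan26, Zkscan4 and Zkscan8 lie within 168.3 kb, at chr13:21362820-21531114, and of these 5 only Zkscan3 was not called. Zkscan4 ran from 3.87 to 6.14 CPM with vehicle (median 5.58) and from 1.87 to 2.90 CPM with epinephrine (median 2.51). The groups were apart, and at 0.458 times the vehicle level it was the largest fall among the called genes (log2 fold change -1.13, SE 0.15, adjusted p = 0.000893). Zkscan8 ran from 25.3 to 49.1 CPM with vehicle (median 31.7) and from 16.7 to 24.5 CPM with epinephrine (median 18.3). Its groups were apart too, at a ratio of 0.59 (log2 fold change -0.76, SE 0.17, adjusted p = 0.0203). The Zkscan8 call was lost without vehicle 1 or 4 or epinephrine 3, 4 or 5 (adjusted p up to 0.0581).

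Zscan12, at the other end of the cluster, ran from 11.2 to 13.7 CPM with vehicle (median 12.5) and from 7.30 to 10.3 CPM with epinephrine (median 8.08). The groups were apart, at a ratio of 0.678 (log2 fold change -0.56, SE 0.10, adjusted p = 0.00515). Zscan26, the most abundant Zscan gene at a mean of 29.8 RPKM, ran from 115 to 145 CPM with vehicle and from 105 to 116 CPM with epinephrine. Its groups overlapped and its change was small (ratio 0.854, log2 fold change -0.23, SE 0.06, adjusted p = 0.0472). Leaving out any 1 library other than vehicle 3 ended the Zscan26 call (adjusted p up to 0.178), as did the replicate block (adjusted p = 0.144). It was also lost with RLE scaling, no filter, the deposited log2-scale values or without the libraries high in Gpx5 (adjusted p up to 0.106).

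Zkscan3, a repressor of autophagy and lysosome genes, was not called. It had means of 55.9 ± 7.35 CPM (vehicle) and 50.9 ± 7.46 CPM (epinephrine; SD, n = 6 each), a log2 fold change of -0.14 (SE 0.11). Of the 4 other counted genes in the window, Pgbd1 and Nkapl were tested and not called, with log2 fold changes of 0.16 and -0.44, and Mir1896 and Zfp389 had too few reads. The 24 tested members that lie within 200 kb of another member held 1 that rose and 7 that fell, and the 39 others held 3 that rose and 5 that fell. Over all tested genes 2.65% rose and 3.58% fell. Of the 7, 4 were those of the chromosome 13 cluster and 2 were the neighbours Zbtb6 and Zbtb26. Whether position goes with falling was not tested. The promoter of Zkscan4 is shown as that of the gene with the largest fall. It is the window chr13:21478599-21478898 on the plus strand of GRCm38.p6, from RefSeq, and it has no TGACG on either strand and so no capitals.
Zkscan4: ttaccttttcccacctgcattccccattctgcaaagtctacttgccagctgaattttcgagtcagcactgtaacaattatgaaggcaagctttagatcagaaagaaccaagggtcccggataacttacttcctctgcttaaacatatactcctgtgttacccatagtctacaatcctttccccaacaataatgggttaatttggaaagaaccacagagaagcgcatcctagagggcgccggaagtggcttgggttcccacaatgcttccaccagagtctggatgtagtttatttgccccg
Its GC content was 45.7%, the lowest among the windows of called genes, and that of the Zbtb21 window was 67.3%. Among the genes that fell, the Zbtb34 window had the highest GC content, 76.7%.

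**Figure D3:**
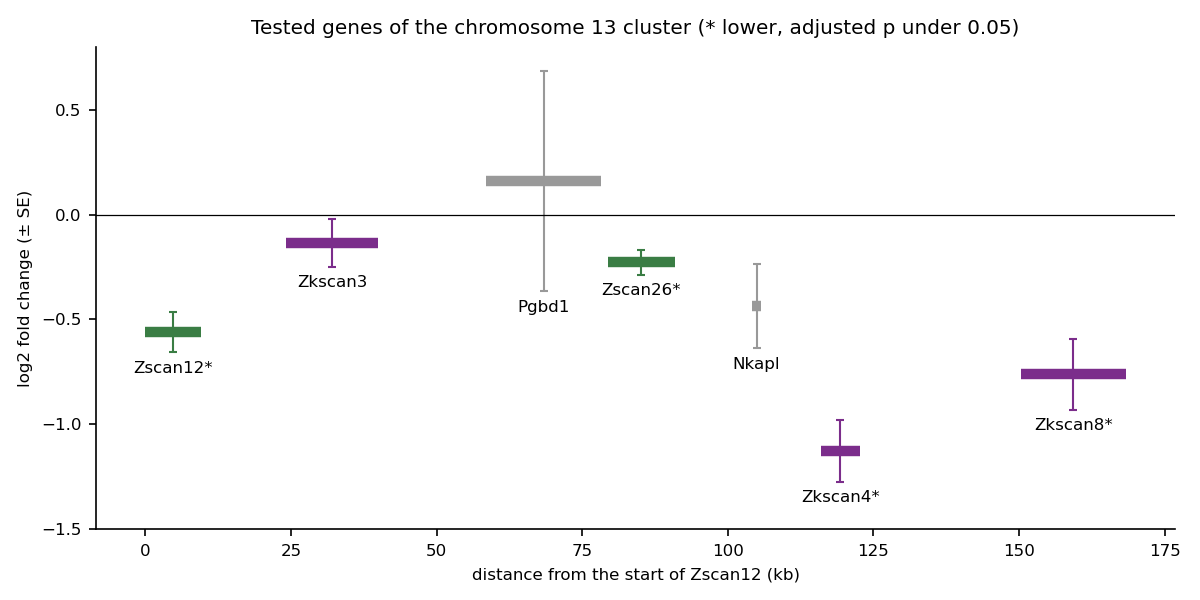
Log2 fold change with its standard error for the 7 tested genes of the chromosome 13 cluster, drawn along the distance in kb from the start of Zscan12, with bars as long as the genes and an asterisk for adjusted p under 0.05. Zscan12, Zscan26, Zkscan4 and Zkscan8 fell, and Zkscan3 and the 2 genes outside the families were not called.

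Outside that cluster, Zkscan17 and Zscan29 fell slightly. Zkscan17, also known as Nizp1 and a binding partner of the methyltransferase Nsd1, fell from a mean of 30.5 ± 2.49 to 25.2 ± 1.84 CPM (SD, n = 6 each), with overlapping groups (log2 fold change -0.27, SE 0.07, adjusted p = 0.0409 by edgeR). Its call was lost without vehicle 1, 2, 3 or 4 or epinephrine 2, 4, 5 or 6 (adjusted p up to 0.137), and with RLE scaling, the deposited log2-scale values or without the libraries high in Gpx5 (adjusted p up to 0.0664). Zscan29 was at 22.4 ± 0.98 and 19.6 ± 0.816 CPM in the respective groups (SD, n = 6 each), which were just apart (log2 fold change -0.20, SE 0.05, adjusted p = 0.0409 by edgeR). The Zscan29 call was lost without vehicle 1, 2, 3, 4 or 6 or epinephrine 2, 3, 4 or 5 (adjusted p up to 0.172), and with the replicate block (adjusted p = 0.125). It was also lost with RLE scaling, no filter, the deposited log2-scale values or without the libraries high in Gpx5 (adjusted p up to 0.0896). By GENCODE M21, exons of 9 of the 16 called genes overlap another counted gene, and no overlapping gene from outside the families was called.

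The members just outside the threshold were Zbtb14, Zbtb16 and Zbtb7a. Zbtb14, the partner of Zbtb21, had means of 26.3 ± 2.90 CPM (vehicle) and 19.9 ± 2.90 CPM (epinephrine; SD, n = 6 each), with no overlap (log2 fold change -0.40, SE 0.11, adjusted p = 0.05001 by edgeR). Zbtb14 was called in 9 of 25 alternatives, among them DESeq2, limma-voom, upper quartile scaling and the replicate block (adjusted p = 0.0213 by edgeR with the block). Zbtb17 and Zbtb44 were the other members with separate groups and no call, at adjusted p of 0.0962 and 0.0701 by edgeR. Both were called with upper quartile scaling, library size scaling and limma-voom. Zbtb7a, a repressor of fetal globin genes, was at 107 ± 9.15 and 90.7 ± 6.33 CPM (SD, n = 6 each), with an adjusted p of 0.0594 by edgeR. It was called in 6 of 25 alternatives, among them DESeq2, limma-voom and library size scaling.

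Zbtb16 had the largest fold change above 0 of the tested members but a wide spread. It was at 153, 93.0, 169, 136, 119 and 114 CPM in vehicle 1 to 6 and at 114, 181, 247, 336, 254 and 306 CPM in epinephrine 1 to 6. All of epinephrine 2 to 6 lay above every vehicle library, and epinephrine 1 lay among the vehicle libraries. The fold change was 1.83 (log2 fold change 0.87, SE 0.24, adjusted p = 0.0562), and Zbtb16 passed the test with DESeq2, with limma-voom, without epinephrine 1, without the 3 libraries high in Gpx5, with the epididymal score and in replicate numbers 4 to 6.

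Per length, the tested members had a median level of 4.15 RPKM and ran from 0.0887 to 41.3 RPKM, with 58 above 1 RPKM and 8 above 10 RPKM. Zbtb7b was highest at 41.3 RPKM, followed by Zbtb16 at 36.2, Zscan26 at 29.8, and Zbtb4 and Zkscan3 at 20.5 RPKM each. Zbtb7b was at 151 ± 41.0 and 154 ± 22.9 CPM in the respective groups (SD, n = 6 each) and was not called (log2 fold change 0.02, SE 0.18, a value below 0 with upper quartile or library size scaling). Zbtb4, a relative of the methyl-DNA reader Kaiso, was at 164 ± 25.4 and 157 ± 35.5 CPM and was not called either. Of the 8 members above 10 RPKM, 1 was called, Zscan26, against 6.23% of all tested genes. A set of 8 genes is too small to tell its share from that of all genes.

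**Figure D4:**
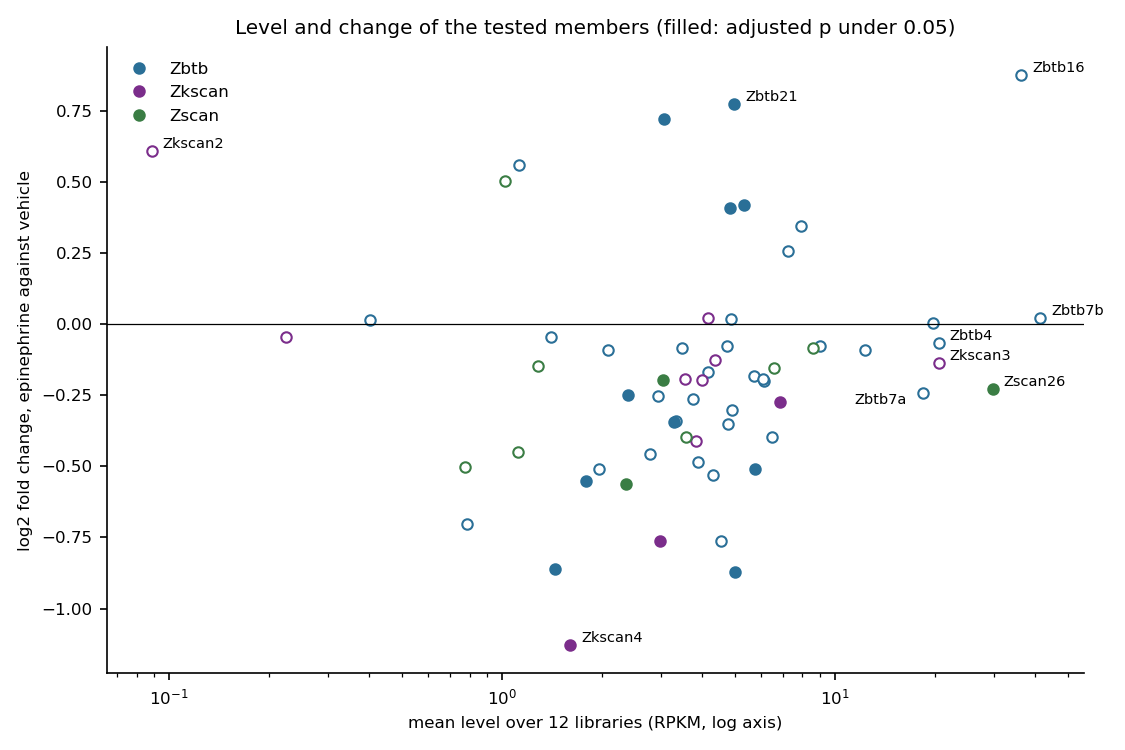
Mean level over the 12 libraries in RPKM, on a log axis, against the log2 fold change of epinephrine against vehicle for the 63 tested genes, with filled points for adjusted p under 0.05. Of the 5 genes with the highest levels, Zscan26 at 29.8 RPKM is filled and Zbtb7b, Zbtb16, Zbtb4 and Zkscan3 are open.

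Of 13 tested members named for their known roles, 1 was called (Zkscan17), against 6.23% of all tested genes. Zbtb20, a repressor of the fetal liver gene Afp, was at 22.0 ± 3.84 and 27.9 ± 2.35 CPM (SD, n = 6 each, adjusted p = 0.104 by edgeR). It was called with DESeq2, with limma-voom and without vehicle 6. Zbtb46 was at 15.1 ± 2.98 and 10.8 ± 2.37 CPM (log2 fold change -0.48, adjusted p = 0.16). It was called in 5 alternatives, those with library size scaling, limma-voom, the epididymal score, without the libraries high in Gpx5 and within numbers 4 to 6. Of the 6 dendritic cell markers 1 fell and 5 were below 0, against 3.58% and 50.2% of all tested genes. Their median log2 fold change was -0.52. Their summed levels were 23.2 to 53.8 CPM with vehicle and 21.0 to 46.6 CPM with epinephrine, and no marker was at 0. Other lists also lay mostly below 0, such as 10 of 12 T and NK cell, 8 of 9 fibroblast and adipose progenitor and 6 of 7 mesothelial markers. The adipocyte (3 of 12), smooth muscle and pericyte (2 of 7) and epididymis and testis (4 of 15) lists did not. The part of the dendritic cell markers in the Zbtb46 values was not tested. Zbtb17 (Miz1, a partner of Myc), Zbtb33 (Kaiso, which binds methylated DNA), Zbtb48 (a telomere-binding protein), Zbtb7c, Zbtb18 (a repressor known from neurons) and Zkscan1 were not called in the main fit, and their log2 fold changes were -0.18, -0.08, -0.34, -0.46, -0.08 and -0.19 in that order. Of these, Zbtb17 and Zbtb7c were called in some alternatives, Zbtb7c only within numbers 4 to 6. Zkscan5, Zscan21 and Zscan25, among the most abundant of their subfamilies, had log2 fold changes of -0.12, -0.09 and -0.15 and were not called.

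The 8 members without a test were all Zscan genes. Zscan10, a factor of embryonic stem cells, had 15 reads over all 12 libraries. Zscan5b and the 6 copies Zscan4a to Zscan4f, known from the early mouse embryo, had 0 reads in each library, which allows up to 3 counts, or 0.0872 to 0.121 CPM depending on the library. The Zscan4 copies lie close together on chromosome 7 and resemble each other closely, so reads shared between them may not have been counted.

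Other BTB zinc finger genes, which carry older names, moved in both directions. For this list and the next, 2.65% of all tested genes rose and 3.58% fell, with a median log2 fold change of -0.0006. Of 8 tested, Hic2 (log2 fold change 0.73, adjusted p = 0.0008), Bcl6b (1.16, adjusted p = 0.00745) and Zfp131 (0.40, adjusted p = 0.0117) rose, and Hic1 fell (log2 fold change -0.82, adjusted p = 0.0488), with a median of 0.17. Without 1 library, no gene of this list fell except where vehicle 2 or epinephrine 5 was the library left out. Of 13 tested SCAN genes under other names, none rose, and Zfp287 (log2 fold change -0.75, adjusted p = 0.00826) and Zfp202 (-0.48, adjusted p = 0.0276) fell, with a median of -0.29. The number that fell was 1 without vehicle 1, 4 or 6 or epinephrine 2, 3, 4 or 5, and 6 without epinephrine 1. Of all tested genes, 4.9% fell without epinephrine 1, and as few as 1.69% did in the other fits without 1 library. With the replicate block the Zfp202 call was lost (adjusted p = 0.0851) and Zfp287 was called (adjusted p = 0.039). Zfp397 was nearest to a call among the rest.

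Among genes for proteins that these factors recruit, 0% of 1 list and 9.09% of the other were called, against 6.23% of all tested genes. Lists of 15 and 11 genes are too small to tell these shares from that of all genes. None of 15 corepressor and ligase genes of BTB proteins was called by edgeR. At an unadjusted p under 0.05, 4 of these 15 and 2 of the 11 KRAB complex genes passed, against 17.2% of all tested genes. DESeq2 called 1 of the 15 and limma-voom 3, against 10.2% and 15.6% of all genes. Of these 15, Tbl1x, Sin3a and Hdac7 came nearest, with log2 fold changes of 0.24, -0.16 and -0.25. Of 11 genes of the KRAB corepressor complex, Cbx3 fell (log2 fold change -0.25, adjusted p = 0.0317, and 0.0598 with the replicate block), and Setdb1 and Cbx1 were next at -0.19 and -0.16 and were not called. No gene of the complex was called lower with the replicate block, or without any 1 library other than epinephrine 1, 2 or 6.

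Replicate numbers 1 to 3 held the 3 libraries with the most epididymal RNA, so the fold changes were also fitted within numbers 1 to 3 and within numbers 4 to 6. Within numbers 1 to 3 no member was called by edgeR, as was the case for all 16709 genes tested there (0%), and 13 members had an unadjusted p under 0.05, against 8.12% of those genes. Within numbers 4 to 6, 4 members rose and 15 fell, against 4.4% and 3.99% of all genes. Of the 16 called genes, Zkscan8, Zbtb11, Zbtb34, Zbtb49, Zkscan17, Zscan29 and Zscan26 were not called within numbers 4 to 6 (adjusted p up to 0.215). The sign was the same in both for 55 of 61 members and for all 16 called genes, of which 11 had the larger change in numbers 4 to 6. The 16 genes were called on all 12 libraries, which include both sets, so their shared sign was largely fixed by that choice. It is no separate support for the calls, and the share of all tested genes with the same sign was not computed. Zbtb21 had log2 fold changes of 0.80 and 0.76, Zkscan4 of -1.05 and -1.19 and Zbtb16 of 0.40 and 1.28, each for numbers 1 to 3 and then 4 to 6. The difference between the sets was not tested.

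**Figure D5:**
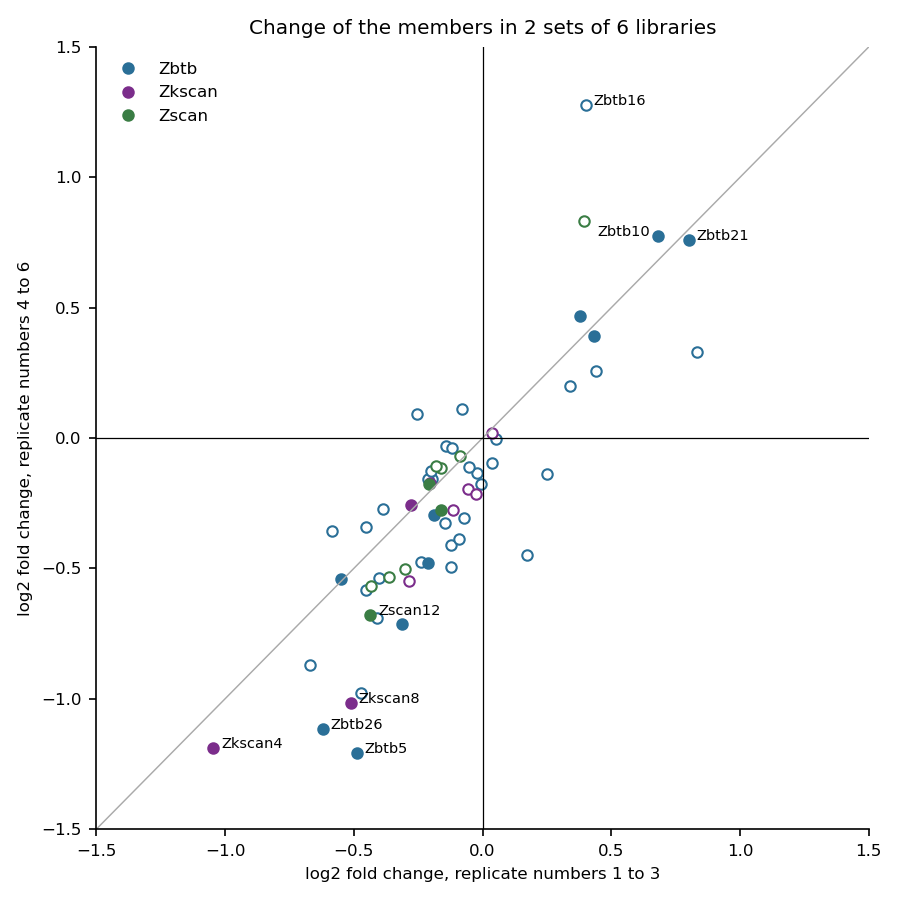
Log2 fold change of each member within replicate numbers 1 to 3 (3 vehicle and 3 epinephrine libraries) against that within numbers 4 to 6, with filled points for genes called over all 12 libraries and a line of equal change. The 16 filled points, picked on these same 12 libraries, have the same sign on both axes, and Zbtb16, open, moves from 0.40 to 1.28.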

How the data were processed

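Total RNA from eWAT of 12 mice was sequenced after SMARTER mRNA-Seq library preparation, per the labels' protocols. Reads were handled with cutadapt, FastQC, HISAT2 and featureCounts on mm10, with DESeq2 also named, per the submitters' processing notes. Neither annotation nor strand setting was given in the sources used here. The authors deposited whole-number counts per gene for 27179 genes, with gene lengths in bases, and a table of variance-stabilized values on a log2 scale, used in 1 alternative.

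Counts were filtered with filterByExpr (minimum count 10, minimum total 15), scaled by TMM and tested over 16175 genes with edgeR 4.0.16 (quasi-likelihood F test, robust) in R 4.3.3, with Benjamini-Hochberg adjustment. CPM are TMM-normalized, and RPKM divide them by the deposited length. The standard error is the unshrunk log2 fold change divided by the square root of F. The script was tested on simulated data. The SD and SE include differences between libraries. The floor given for genes at 0 reads covers counting error only and divides 3 counts by the library total, without TMM scaling.

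Named were all called members (at most 24), the 3 with the highest RPKM in each subfamily, the 3 nearest above the threshold, members known for their roles, and up to 3 genes of each list with the smallest p. Hic1, Zbtb44 and single marker genes were named after their values were seen. Members, lists and motifs were chosen with earlier results of these data known. Positions are from a RefSeq gene table (GRCm38.p6), and strands and exon overlaps from GENCODE M21.

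Alternatives used RLE, upper quartile or library size scaling, DESeq2 1.42.0, limma 3.58.1 (voom with sample weights, and on the deposited values), no filter or one on mean CPM (1 or more), a replicate block, an adjusted p of 0.01, and all libraries but 1 at a time. Added after seeing the data were the fits without the libraries high in Gpx5, with an epididymal score per library (the markers of epididymis and testis averaged as log2 CPM), and within replicate numbers 1 to 3 or 4 to 6. The titles give the replicate numbers. In all 6 pairs, libraries of the same number deviated together (correlations across genes of 0.262 to 0.799, all over 0.1). Only 3 of the 12 libraries correlated best with their own number. Epididymal RNA also differed between numbers, and its part in these correlations was not tested. The correlations thus cannot show whether the numbers mark pairs, so the reported fit has no block and the block is an alternative. With the block, 8 of the 16 called genes were still called.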

Additional observations from a re-analysis of the deposited data

Results flagged for a closer look

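In 3 of 66 groups of 6 libraries examined, 1 library lay far from the others by Dixon's test, and chance gives about 1 in 20. Zkscan4 was lowest in vehicle 2, at 3.87 CPM, where the other vehicle libraries lay between 5.29 and 6.14 CPM. Zbtb17 was highest in vehicle 3, at 22.7 CPM, where the others lay between 19.8 and 20.6 CPM. Zbtb18 was highest in vehicle 2, at 84.4 CPM, where the others lay between 35.2 and 42.8 CPM. Vehicle 2 also had the largest share of Gpx5 reads, 1.98%, and the part of epididymal RNA in these values was not tested.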

How the results depend on the processing

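Counts of called genes moved more than directions, and the share of all genes called moved with them: lower calls made up 3.58% of all genes in the reported fit, 1.14% at a threshold of 0.01, 4.74% with upper quartile scaling, 5.48% with DESeq2, 9.29% with limma-voom, 2.03% with no filter and 2.94% on the deposited values. The 6 Zbtb genes that fell became 1 at a threshold of 0.01, 2 with the replicate block, 11 with upper quartile scaling, 12 with library size scaling, 10 with DESeq2, 18 with limma-voom, 16 without the libraries high in Gpx5, 13 with the epididymal score, 0 within numbers 1 to 3 and 11 within numbers 4 to 6. The 4 that rose became 7 with limma-voom, where 6.34% of all genes rose, and 0 within numbers 1 to 3, where no gene was called. The 3 Zkscan genes that fell became 1 at 0.01, 5 with limma-voom and 0 within numbers 1 to 3. The 3 Zscan genes that fell became 1 at 0.01, with RLE scaling, with no filter, on the deposited log2-scale values and with the replicate block, 6 with limma-voom, 5 with the epididymal score and 0 within numbers 1 to 3. Without 1 library in turn, 1 to 12 Zbtb genes fell and 3 to 6 rose, and 1 to 4 Zkscan and 1 to 4 Zscan genes fell. The replicate block changed no member's call beyond those named with their block values.

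The 3 other BTB genes that rose became 0 within numbers 1 to 3. The 1 that fell became 0 with RLE scaling, no filter, the deposited log2-scale values and within numbers 1 to 3, 2 within numbers 4 to 6, and 0 to 1 without 1 library. The 2 other SCAN genes that fell became 4 with library size scaling, 6 with limma-voom or without the libraries high in Gpx5, 1 with the replicate block or within numbers 4 to 6, 0 within numbers 1 to 3, and 1 to 6 without 1 library. Of the corepressors, 1 rose with DESeq2 or the epididymal score, where 4.7% and 4.37% of all genes rose. With limma-voom 2 rose and 1 fell, against 6.34% and 9.29% of all genes. With library size scaling 2 fell, against 8.95% of all genes. The 1 KRAB complex gene that fell became 2 with upper quartile or library size scaling or without the libraries high in Gpx5, 3 with limma-voom, 0 with RLE scaling, the replicate block or within numbers 1 to 3 or 4 to 6, and 0 to 1 without 1 library. The 11 cyclic AMP and immediate early genes that rose became 0 within numbers 1 to 3.

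The Zbtb median was -0.30 with library size scaling. No called gene changed sign in any setting, but each setting used some or all of the libraries on which these genes were called. Among genes not called, Zbtb7b turned to -0.0099 with upper quartile scaling, -0.0771 with library size scaling and -0.139 within numbers 4 to 6, and below 0 without vehicle 1, 2 or 3 or epinephrine 3, 4 or 5 (range over all 12, -0.0546 to 0.134). Zbtb4 turned to 0.0384 without the libraries high in Gpx5 and 0.0918 within numbers 4 to 6, and above 0 without vehicle 4 or epinephrine 1 (range -0.131 to 0.0213). Zbtb18 was above 0 without vehicle 2 or epinephrine 4 (range -0.265 to 0.201), and Zbtb33 without vehicle 2 (range -0.156 to 0.0315). The cause of these changes was not tested.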
